A study of Mus musculus with 20 samples.

Results

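The 38 genes described here carry a cell through mitosis and cytokinesis. They were taken by gene symbol from the 26440 genes of a normalized RNA sequencing table, all 38 symbols were found, and all 38 passed the filter on low values that kept 18125 genes for testing. The libraries came from C57BL/6N mice that were either labelled MyHC-Creld1 KO, in which Creld1 was deleted in the myocardium under a myosin heavy chain driver, or labelled wild-type. Whole embryonic hearts (stage E13.5) came from 4 knockout and 4 wild-type embryos of 3 litters. Atria and ventricles were dissected separately from 3 knockout and 3 wild-type pups of 3 litters on postnatal day 3 (P3), so that each pup gave 2 libraries. Cells of the heart outside the myocardium keep Creld1 in this model, the labels do not say which alleles the wild-type animals carried, and sex is not labelled. The study asked how loss of Creld1 in the myocardium alters transcription at both stages.

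Mitosis begins when cyclin A2 and the B cyclins activate the kinase Cdk1, and it ends when the anaphase-promoting complex, with Cdc20 and the ubiquitin-conjugating enzyme Ube2c, marks cyclin B and securin for destruction. Between these points the kinetochore ties chromosomes to the spindle, the chromosomal passenger complex of Aurora B, Incenp, survivin (Birc5) and borealin (Cdca8) corrects faulty attachments, and the central spindle and actomyosin ring then cleave the cell. Most genes of this programme are transcribed in G2 and M phase through shared promoter elements, the cell cycle genes homology region (CHR) and the CCAAT box. In the mouse heart cardiomyocytes divide before birth and mostly leave the cell cycle during the first postnatal week, often after a last round in which the nucleus divides and the cell does not, whereas fibroblasts and endothelial cells can go on dividing.

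The promoters printed are those of the 4 members with the smallest unadjusted p in the atrial comparison, of which only Birc5 was called there. In GENCODE M21 (GRCm38) Birc5 spans chr11:117849251-117855743 with 4 exons, Ube2c chr2:164769898-164778822 with 6, Racgap1 chr15:99620496-99651656 with 18 and Ccnb2 chr9:70407692-70421547 with 9. Each printed promoter is 300 bases long, from 250 before to 50 after the RefSeq start on the gene's own strand, in build GRCm38.p6. Capitals mark the CHR (TTTGAA or TTCGAA) and CCAAT, searched on both strands, so that TTCAAA and ATTGG are the same elements read on the other strand. The windows are chr11:117848987-117849286 on the plus strand for Birc5, chr2:164769679-164769978 on the plus strand for Ube2c, chr15:99651607-99651906 on the minus strand for Racgap1 and chr9:70421505-70421804 on the minus strand for Ccnb2.
Birc5: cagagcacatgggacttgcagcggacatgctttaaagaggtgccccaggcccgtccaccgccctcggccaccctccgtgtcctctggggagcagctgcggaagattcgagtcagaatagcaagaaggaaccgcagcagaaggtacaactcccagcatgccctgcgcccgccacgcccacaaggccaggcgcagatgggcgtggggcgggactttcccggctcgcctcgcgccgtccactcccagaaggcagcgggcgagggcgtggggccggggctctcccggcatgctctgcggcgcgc
Ube2c: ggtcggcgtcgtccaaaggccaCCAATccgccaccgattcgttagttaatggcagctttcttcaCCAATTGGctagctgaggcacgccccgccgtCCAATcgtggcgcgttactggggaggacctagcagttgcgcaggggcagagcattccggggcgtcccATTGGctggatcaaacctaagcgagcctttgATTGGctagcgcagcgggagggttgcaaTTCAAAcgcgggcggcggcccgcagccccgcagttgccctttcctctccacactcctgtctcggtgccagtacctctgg
Racgap1: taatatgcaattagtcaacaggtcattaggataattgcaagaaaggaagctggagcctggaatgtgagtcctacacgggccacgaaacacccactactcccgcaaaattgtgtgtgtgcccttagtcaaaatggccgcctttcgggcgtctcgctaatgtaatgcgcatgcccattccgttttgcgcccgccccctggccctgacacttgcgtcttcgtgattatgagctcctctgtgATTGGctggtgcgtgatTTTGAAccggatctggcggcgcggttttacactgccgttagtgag
Ccnb2: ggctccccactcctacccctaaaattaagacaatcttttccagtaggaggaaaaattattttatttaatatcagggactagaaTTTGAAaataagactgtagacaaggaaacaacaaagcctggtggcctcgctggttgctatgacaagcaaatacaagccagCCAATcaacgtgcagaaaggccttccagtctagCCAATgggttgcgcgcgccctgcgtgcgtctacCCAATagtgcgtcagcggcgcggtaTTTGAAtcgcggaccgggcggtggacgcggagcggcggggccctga

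The RefSeq table held 35 windows of 33 members. Incenp, Ccna2, Kif20a, Aurkb and Tpx2 were not among them. A CHR match lay in 28 of the 35 windows (80.0%) and in 19.2% of all 32851 windows of the same length. CCAAT lay in 27 of 35 (77.1%) and in 37.4% of all windows, and both elements lay in 24 of 35 (68.6%) and in 7.52% of all windows. CCAAT was found at 2 or more places in 19 of 35 (54.3%), beside 11.7% of all windows. From 50 bases before to 50 after the start, 26 of 35 windows held a CHR match (74.3%, beside 5.31% of all windows). Among the printed promoters Ube2c held 6 CCAAT matches upstream of 1 CHR match that begins 29 bases before the start, overlapping matches counted separately. Ccnb2 held 3 CCAAT matches and 2 CHR matches, one of them at base 5 after the start, and Racgap1 held 1 of each element, its CHR match at base 6. The windows of Birc5, Nuf2, Nusap1 and Melk held neither element, which says only that these letters are not in these windows. These matches are a description of sequence and no binding was measured. Ect2 and Prc1 have 2 windows each, which overlap.

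**Figure D1:**
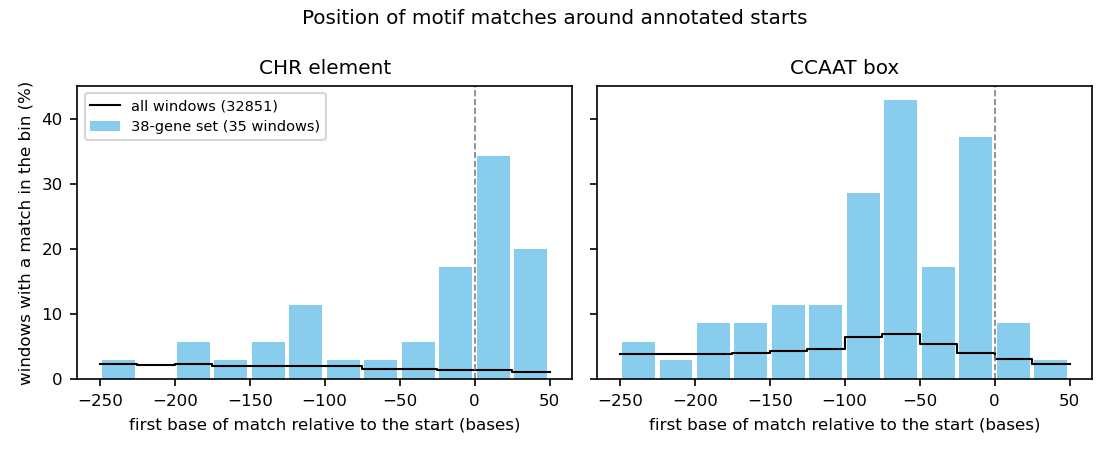
Percent of promoter windows with at least 1 match beginning in each bin of 25 bases (y axis) against the distance from the annotated start in bases (x axis), for the CHR (left) and CCAAT (right); bars are the 35 windows of the mitosis and cytokinesis genes and the black line is all 32851 windows. CHR matches of the gene set gather after the start, with 12 windows in the bin that begins at the start, and CCAAT matches gather upstream of it, with 15 windows in the bin from -75 to -51.

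Estimated total counts ran from 5138353 to 20669367 per library. Several libraries are in doubt and bear on what follows. Wild-type atrial replicate 2 had a signal of 9242 for Myl2, the ventricular myosin light chain gene, beside at most 97.2 in the other atrial libraries. The libraries labelled wild-type pup 2 also differed in Xist, the RNA of the inactive X (2876 in atria and 74.9 in ventricles). By replicate, wild-type E13.5 hearts had Xist signals of 2407, 17.8, 2369 and 2670, and knockout hearts 38.2, 3003, 33.0 and 35.9. Wild-type atria had 3596, 2876 and 6119, beside knockout values of 20.4, 2485 and 1591. Wild-type ventricles had 2791, 74.9 and 2667, beside knockout values of 21.6, 2858 and 2982. Sex may thus be unevenly shared between genotypes at E13.5 and in atria, and its part in the differences was not tested. Creld1 itself checks the labels. The library labelled E13.5 knockout replicate 1 had a Creld1 signal of 70.9 beside 66.0 in its wild-type littermate, and the libraries labelled knockout pup 2 had 26.6 in atria and 59.3 in ventricles, beside 21.6 and 59.7 in wild-type pup 2. Across the atria Creld1 stood at 105, 21.6 and 146 in wild-type and at 23.1, 26.6 and 82.4 in knockout libraries. Wild-type atrial replicate 2 thus had the lowest value of the atria. Ventricles stood at 62.2, 59.7 and 130 in wild-type and at 19.9, 59.3 and 51.9 in knockout libraries. Both libraries of the third atrial pair stand apart from the other atria, so the genotype counts are given below with and without the libraries in doubt that enter them. Directions drawn between genotypes rest on these labels.

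As a group the 38 genes stood at a high and even level in the embryonic heart and at lower and more variable levels after birth, lowest in wild-type atria. The mean log2(signal + 1) over the 38 genes was 8.93 to 9.08 in the 4 wild-type and 8.89 to 9.11 in the 4 knockout E13.5 hearts, and these ranges overlap almost fully. In wild-type P3 atria it was 7.55, 7.95 and 7.96, and in knockout P3 atria 8.61, 8.68 and 8.46. No knockout atrium overlapped a wild-type atrium, and the gap between the nearest libraries was wider than the range within either group. The ventricular libraries stood at 7.98, 8.30 and 8.64 (wild-type) and at 7.88, 8.14 and 8.50 (knockout), which overlap. Wild-type atria averaged 7.82 ± 0.24 (SD, n = 3), whereas knockout atria averaged 8.58 ± 0.11 (SD, n = 3). Wild-type ventricles averaged 8.31 ± 0.33 (SD, n = 3), whereas knockout ventricles averaged 8.17 ± 0.31 (SD, n = 3). Among E13.5 hearts the wild-type mean was 9.00 ± 0.08 (SD, n = 4) beside a knockout mean of 9.03 ± 0.10 (SD, n = 4). Of the 6 group means the wild-type atrial mean was the lowest for 27 of the 38 genes, the knockout ventricular mean for 8 and the wild-type ventricular mean for 3. The highest mean was in wild-type E13.5 hearts for 15 genes, in knockout E13.5 hearts for 18 and in knockout atria for 5. In whole tissue, fewer dividing cells and less RNA per dividing cell cannot be told apart.

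**Figure D2:**
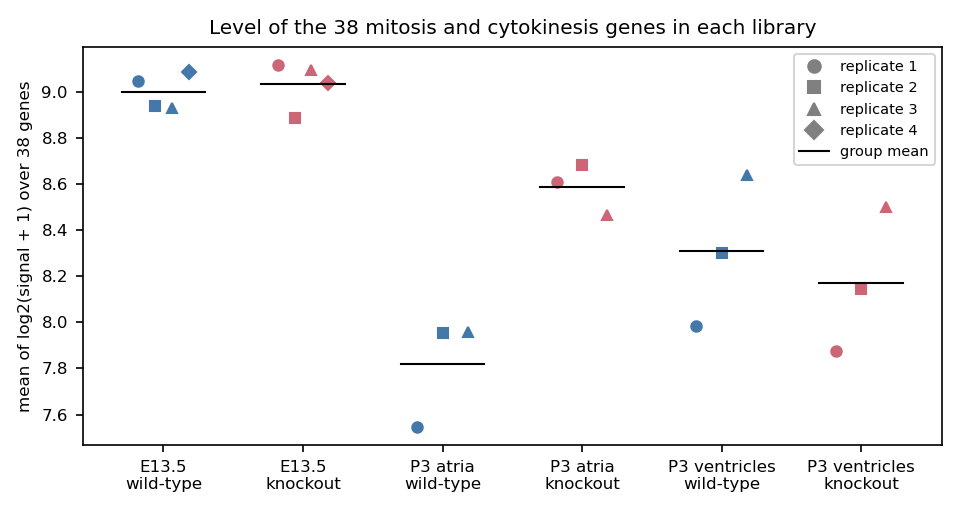
Mean of log2(signal + 1) over the 38 genes (y axis) in each of the 20 libraries, by group (x axis; wild-type blue, knockout red); marker shapes give the replicate number and black lines the group means. The 3 wild-type atria lie between 7.55 and 7.96, below all 3 knockout atria at 8.46 to 8.68, while the ventricular groups overlap.

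**Figure D3:**
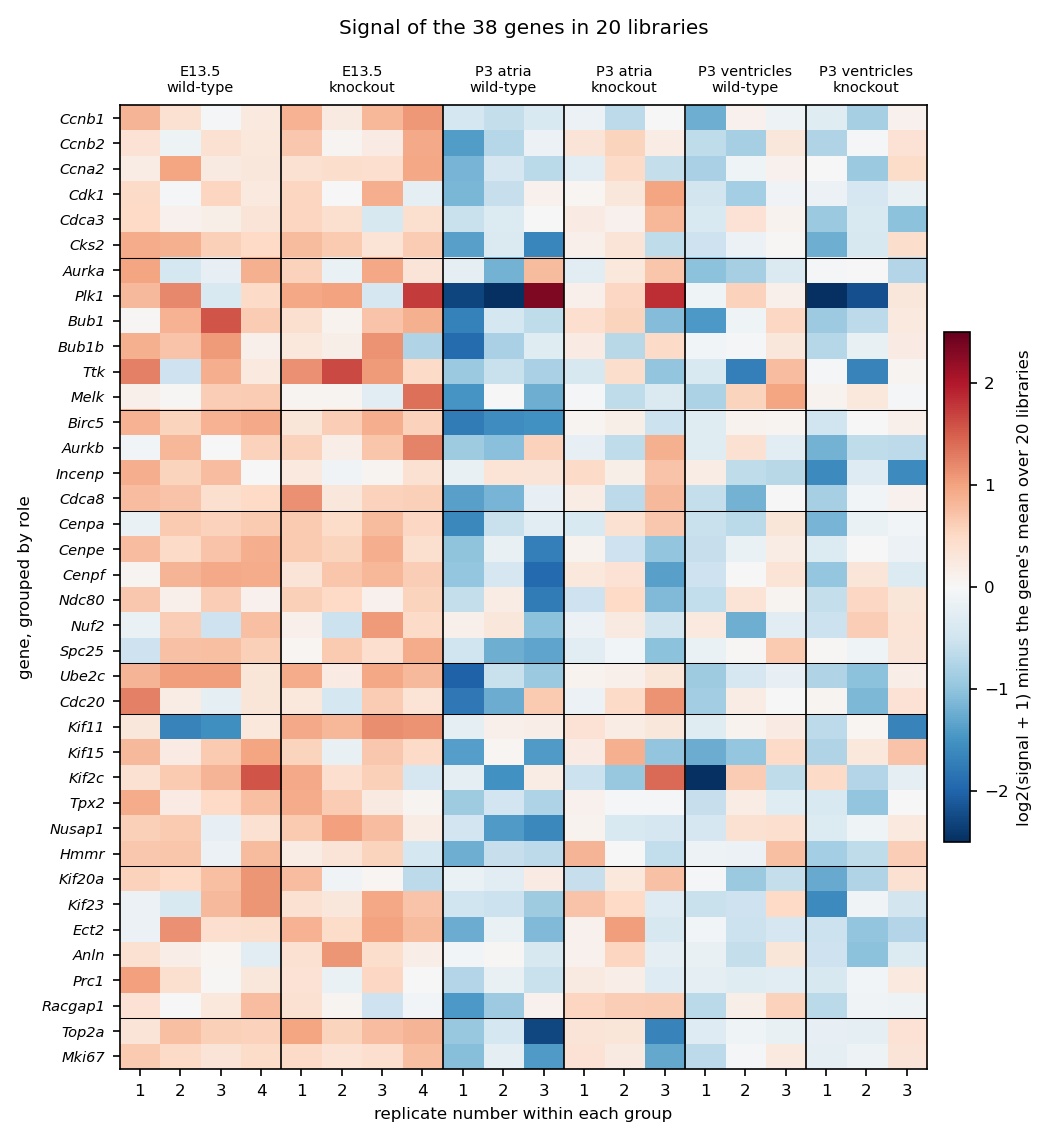
Heat map of the 38 genes (rows, grouped by role) in the 20 libraries (columns, by group and replicate number); the colour is log2(signal + 1) minus the gene's mean over the 20 libraries, limited to 2.5 either way. Rows are mostly red at E13.5 and blue in wild-type atria, and Kif11, whose correlation with the mean of the others is 0.19, follows this pattern least.

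In P3 atria every one of the 38 genes had a positive knockout minus wild-type difference, with a median of 0.79 on the log2 scale, where 49.8% of all genes tested were positive and their median was 0. One member, Birc5, was called, meaning that its Benjamini-Hochberg adjusted p over all 18125 genes in limma was under 0.05; 0.0221% of all genes were called higher. At an unadjusted p under 0.05 there were 15 members, beside 2.95% of all genes on the higher side. For 9 members (Birc5, Ccnb2, Cdca3, Kif11, Kif23, Nusap1, Racgap1, Tpx2 and Ube2c) all 3 knockout libraries lay above all 3 wild-type libraries, as 3.92% of all genes did. Within litters 27 members were higher in the knockout pup of all 3 pairs, as 15.1% of all genes were. The pairs did not contribute evenly: the knockout library was higher for 34, 33 and 34 of the 38 genes in pairs 1 to 3, with median log2 differences of 1.20, 0.68 and 0.54.

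Birc5 encodes survivin, the passenger complex subunit that docks it on chromatin. Its signal was 220.2, 252 and 262 in wild-type atria and 785, 823 and 515 in knockout atria. The groups stood well apart. Its log2 difference was 1.502 (SE 0.26), a fold of 2.83 (limma adjusted p = 0.0374). Ube2c, the ubiquitin-conjugating enzyme of the anaphase-promoting complex, stood at 109, 306 and 235 in wild-type, against 477, 491 and 555 in knockout atria. The knockout atria were tightly grouped and all above the wild-type atria. The log2 difference was 1.34 (SE 0.37, limma adjusted p = 0.443), so Ube2c was not called. Exons of Ube2c overlap Tnnc2, a troponin gene, on the opposite strand, and whether counting used strand is not stated.

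Racgap1, a subunit of the centralspindlin complex that positions the cleavage furrow, had signals of 116, 167 and 340.0 in wild-type, against 458, 482 and 489 in knockout atria. Wild-type replicate 3 was closest to the knockout group. The log2 difference was 1.34 (SE 0.38, limma adjusted p = 0.479). Ccnb2, the gene of cyclin B2, had 179, 288 and 429.7 in wild-type, against 595, 699.6 and 538 in knockout atria, a log2 difference of 1.11 (SE 0.37, limma adjusted p = 0.665). The groups do not overlap for either gene, and neither was called. Mki67, which coats mitotic chromosomes and is a common proliferation marker, had 1311, 2359 and 1029 in wild-type, against 3554, 3204 and 1138 in knockout atria. Top2a, the topoisomerase that untangles sister chromatids, had 1602, 2302 and 643 in wild-type, against 3884, 3831 and 979 in knockout atria. For both genes the third knockout library lay within the wild-type range, and both libraries of pair 3 were the lowest of their groups. The log2 differences were 0.68 (SE 0.37) for Mki67 and 0.87 (SE 0.44) for Top2a, with limma adjusted p of 0.987 and 0.956.

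By role, every group had positive atrial differences, with wide ranges within most of them. The 2 genes that work with the anaphase-promoting complex had the highest role median, 1.31, from 1.34 for Ube2c and 1.28 for Cdc20, its activator. Cyclins and Cdk1 partners (6 genes) ranged from 0.20 for Ccnb1, cyclin B1, to 1.11 for Ccnb2, with a median of 0.83. In this group Cks2, a small Cdk1-binding subunit, had 1.05 and Cdk1 itself 0.98. The 4 passenger complex genes ranged from 0.28 for Incenp, the scaffold, to 1.502 for Birc5, with 1.02 for Cdca8 and 0.47 for Aurkb. Mitotic and checkpoint kinases (6 genes) ranged from 0.43 for Aurka to 1.68 for Plk1, with a median of 0.71. Plk1 had the largest difference of all 38 genes and an SE of 1.07, which rests on a spread shared by the 6 groups. Its wild-type atrial libraries stood at 8.51, 6.64 and 235 and its knockout atrial libraries at 49.98, 65.8 and 166. The first 2 wild-type values rest on about 12 and 3 reads. Kinetochore genes (6) ranged from 0.07 for Nuf2 to 1.05 for Cenpa, the centromeric histone, with a median of 0.53. Spindle motors and spindle assembly genes (6) ranged from 0.25 for Kif11 to 0.95 for Kif15, with a median of 0.81. Cytokinesis genes (6) ranged from 0.23 for Kif20a to 1.34 for Racgap1, with 1.08 for Ect2, which Racgap1 recruits to the midzone, and 0.29 for the ring scaffold Anln. Exons of 9 members overlap another gene in the annotation. These 9 were all positive with a median of 0.94, and the 29 without an overlap were all positive with a median of 0.68. The part of overlapping genes in the atrial differences was not tested.

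**Figure D4:**
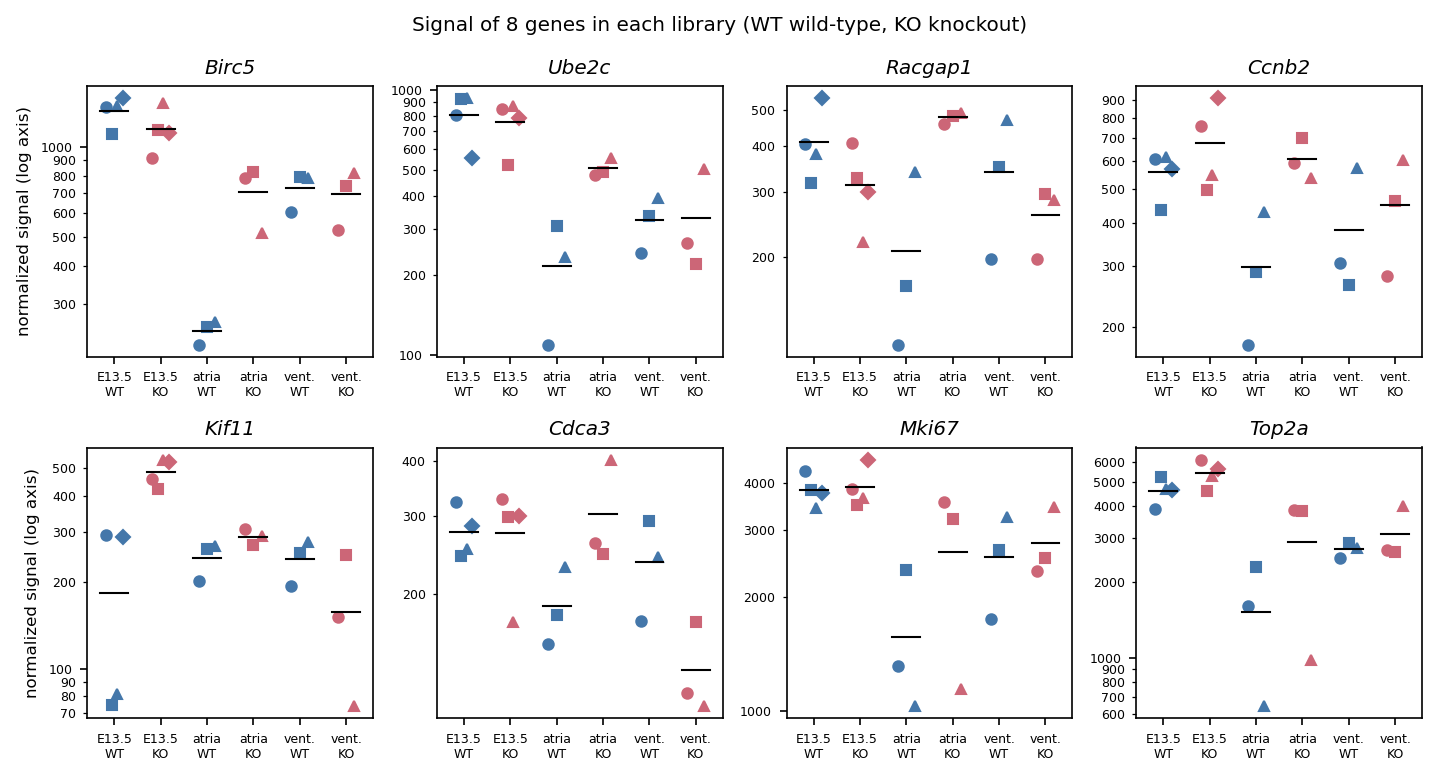
Normalized signal on a log axis (y) in each library by group (x) for 8 of the genes; wild-type is blue, knockout red, marker shapes are replicates 1 (circle), 2 (square), 3 (triangle) and 4 (diamond), and black lines are group means. In atria Birc5 stands at 220.2 to 262 in wild-type and 515 to 823 in knockout, and Kif11 at E13.5 has its 2 lowest wild-type values at 74.4 and 81.6.

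The atrial direction held when each set of libraries in doubt was left out in turn. Leaving all of them out together was not done. The single call held without the third atrial pair (limma adjusted p = 0.00674) and without E13.5 knockout replicate 1 (limma adjusted p = 0.0477), and it was lost without wild-type atrial replicate 2 or either pup 2. Without wild-type atrial replicate 2, 36 of 38 members were positive with a median of 0.89, and 17 had groups that do not overlap, as 6.82% of all genes did. Without both libraries of knockout pup 2, 36 were positive with a median of 0.68, and 13 had groups that do not overlap (6.80% of all genes). Without the third atrial pair, 37 were positive with a median of 0.92, and 29 had groups that do not overlap (18.9% of all genes). Birc5 kept a log2 difference of 1.38 to 1.77 over the 30 alternatives and was called in 11 of them. It had a limma adjusted p of 0.164 without both libraries of wild-type pup 2 and 0.395 without both of knockout pup 2. With single atrial libraries left out, the limma adjusted p was 0.168 and 0.0993 without wild-type replicates 1 and 2, 0.199 and 0.274 without knockout replicates 1 and 2, and under the threshold without either library of pair 3. With atria fitted alone 6 members had an unadjusted p under 0.05 and 0 were called. With the replicate block, which adds a term for each replicate number of a tissue, 21 members had an unadjusted p under 0.05 and 1 was called. The shares of all genes under this rule in these fits are not given here, so these counts cannot be read as particular to the members. The median of the 38 genes lay between 0.63 and 0.92 in all 30 alternatives.

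Other cell cycle genes gave a setting for the atrial result. Of 75 further mitotic genes tested 71 were positive, with a median of 0.67, and 0 were called by limma. They ranged from -0.38 to 2.35. As examples, Nek2, a centrosome kinase gene, had 1.47 and Zwilch, a kinetochore gene, 1.28, both above the list median. Of 40 DNA replication genes 32 were positive and 8 negative, with a median of 0.47 and 0 called. They ranged from -1.37 to 2.13, with Ung at 1.23 and Rfc3 at 1.41 as examples, both also above the list median. Of 16 G1 cyclin, kinase and inhibitor genes 12 were positive with a median of 0.43 and 0 were called. The core subunits of the anaphase-promoting complex, which are present through the cell cycle, were positive in 12 of 16 with a median of 0.09 and 0 called. Transcriptional and other regulators of G2 and M were positive in 13 of 26 with a median of 0.00 and 0 called. The medians thus graded from the mitotic genes through replication and G1 genes to the constitutive subunits. The regulators of G2 and M, with the lowest median, stood outside this order. This is a description with no test of the difference between lists.

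Markers of several cell types moved with the atrial groups. The summed signal of 7 globin genes was 15575 to 18692 in wild-type and 30938 to 132735 in knockout atria, with 6 of 7 genes positive, a median of 1.59 and 0 called by limma. The sum of 11 erythroid precursor genes was 211 to 395 in wild-type and 379 to 578 in knockout atria. Of the 10 tested, 7 were positive, with a median of 0.96 and 0 called. The erythroid transcription factor gene Klf1 was at 0 in 2 of 3 wild-type and 2 of 3 knockout atria. Fibroblast markers went the other way: the sum of 12 genes was 85471 to 90410 in wild-type and 63239 to 65152 in knockout atria, with 9 of 12 negative and a median of -0.67. One of them, Lum (lumican), fell, with -1.82 (limma adjusted p = 0.0133); it is named because it was the only one called. Cardiomyocyte markers (14 genes) summed to 235962 to 247622 in wild-type and 299001 to 585019 in knockout atria, with 8 of 14 positive, a median of 0.10 and 0 called. Endothelial markers were positive in 8 of 10 with a median of 0.17, epicardial in 2 of 10 with -0.48, smooth muscle in 4 of 9 with -0.06 and macrophage in 5 of 12 with -0.07, with 0 called in any of these 4 lists. Lymphoid markers summed to 72.0 at most and glial markers to 246 at most in any atrial library. The embryonic globin gene Hbb-bh1 was at 0 in 2 of 3 wild-type and 1 of 3 knockout atria. The globin, fibroblast and cardiomyocyte sums thus did not overlap between genotypes, whereas the erythroid precursor sums did. The endothelial sums, whose values are not given here, did not overlap either. The part of these cell types in the mitotic difference was not tested.

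In E13.5 hearts the 38 genes did not share a direction. Of them 19 were positive and 19 negative, with a median of 0.01, and 0 were called by limma; 0% of all genes were called higher. At an unadjusted p under 0.05 there was 1 member, Kif11, beside 2.39% of all genes on the higher side, and 747 genes in either direction. It was also the only member whose groups do not overlap, as for 1.30% of all genes with knockout above wild-type. Kif11 encodes the kinesin that pushes spindle poles apart. Its signal was 293, 74.4, 81.6 and 289 in wild-type, against 459, 423, 536 and 524 in knockout hearts. The 2 low wild-type values belong to 2 embryos of 1 litter, whose knockout littermates stood at 423 and 536. The log2 difference was 1.67 (SE 0.42, limma unadjusted p = 6.42e-04, adjusted p = 0.664). In P3 tissues Kif11 stood at 194 to 307 in atria of both genotypes and in wild-type ventricles, and 1 knockout ventricle was as low as the 2 embryos, at 74.0. With the replicate block 2 members had an unadjusted p under 0.05 at E13.5, with the share of all genes in that fit not given here.

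The next members by unadjusted p at E13.5 were Kif20a, Anln and Ccnb1. Kif20a, the kinesin that carries passenger proteins to the midzone, had 329, 313, 375 and 479 in wild-type, against 376, 208, 229 and 141 in knockout hearts. Only the library labelled knockout replicate 1 lay within the wild-type range. Its log2 difference was -0.71 (SE 0.38), and its exons overlap Cdc23 on the opposite strand. Anln had 677, 584, 542 and 428 in wild-type, against 678, 1125, 708 and 588 in knockout hearts, a log2 difference of 0.45 (SE 0.27). Ccnb1 had 1223, 885, 656 and 806 in wild-type, against 1243, 792, 1201 and 1431 in knockout hearts, a log2 difference of 0.39 (SE 0.30). Each of these 3 genes had a limma adjusted p of 1, and their groups overlap. Mki67 had 4300.0, 3822, 3431 and 3773 in wild-type, against 3846, 3493, 3655 and 4604 in knockout hearts, a log2 difference of 0.02 (SE 0.32) whose sign changed when some libraries were left out. Top2a had 3889, 5252, 4679 and 4641 in wild-type, against 6128, 4594, 5282 and 5631 in knockout hearts, a log2 difference of 0.23 (SE 0.38). By role the medians lay between -0.20 for spindle genes and 0.13 for Mki67 and Top2a. Without the library labelled knockout replicate 1, 20 of 38 members were positive with a median of 0.02. The 12 fibroblast markers were all positive at E13.5 with a median of 0.33, while 33 of the 75 further mitotic genes and 14 of 40 replication genes were positive.

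In P3 ventricles the differences scattered around 0 with more members on the negative side. Of 38 genes 14 were positive and 24 negative, with a median of -0.09, and 0 were called by limma, as 0% of all genes were called lower. With an unadjusted p under 0.05 there was 1 member, Cdca3, where 1.91% of all genes were lower by that rule. Cdca3 and Aurkb had all knockout libraries below all wild-type libraries, as 5.56% of all genes did. Cdca3, a trigger of mitotic entry, had 174, 292 and 242 in wild-type, against 119, 173 and 112 in knockout ventricles. Its highest knockout value lay just under its lowest wild-type value. The log2 difference was -0.80 (SE 0.33, limma unadjusted p = 0.0252, adjusted p = 1). Plk1, the polo-like kinase that acts from mitotic entry to abscission, had 42.3, 68.4 and 50.04 in wild-type, against 1.93, 9.11 and 55.7 in knockout ventricles. The first 2 knockout values rest on about 2 and 15 reads and the last lay within the wild-type range. The log2 difference was -2.17 (SE 1.07, limma adjusted p = 1).

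Incenp had 149, 83.3 and 80.5 in wild-type, against 42.5, 103 and 42.7 in knockout ventricles, a log2 difference of -0.79 (SE 0.40). Aurkb, the catalytic kinase of the same complex, had 101, 163 and 101 in wild-type, against 53.8, 79.8 and 78.5 in knockout ventricles, a log2 difference of -0.76 (SE 0.48). Birc5, their partner, had 605, 793 and 785 in wild-type, against 530.4, 739 and 819.6 in knockout ventricles, a log2 difference of -0.08 (SE 0.26). The subunits of this complex thus did not share 1 difference in ventricles, with Cdca8 at 0.34, and none was called. Mki67 had 1744, 2656 and 3246 in wild-type, against 2346, 2528 and 3454 in knockout ventricles. Top2a had 2495, 2866 and 2734 in wild-type, against 2682, 2635 and 3997 in knockout ventricles. Both had overlapping groups, with log2 differences of 0.15 and 0.18 whose signs changed when single libraries were left out. The median difference was negative in each of the 3 litter pairs, at -0.06, -0.12 and -0.09. With a single library left out, which unbalances the litters, the median was 0.13 without wild-type ventricular replicate 3 and 0.05 without knockout ventricular replicate 1. Without both libraries of wild-type pup 2 it was -0.01 with 18 members positive, and without both of knockout pup 2 it was -0.03 with 19 positive. Of the 75 further mitotic genes 36 were positive in ventricles, with a median of -0.01.

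**Figure D5:**
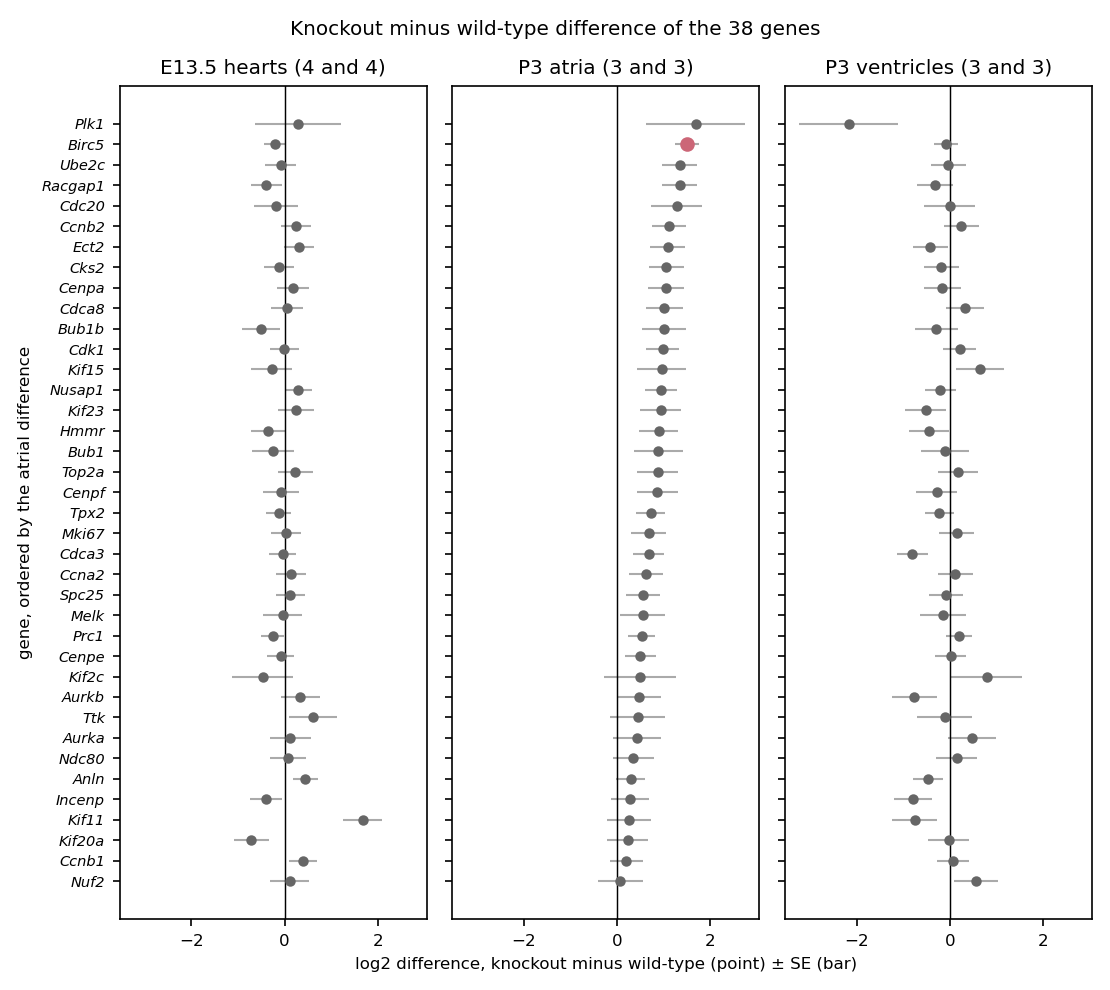
Knockout minus wild-type difference on the log2 scale (x axis; points with bars of 1 SE from limma) for each of the 38 genes (y axis, ordered by the atrial difference) in 3 panels (E13.5 hearts, atria, ventricles); the red point marks the called gene. All 38 atrial points lie right of 0, from 0.07 for Nuf2 to 1.68 for Plk1, whereas the other panels scatter on both sides.

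The atrial and ventricular differences were compared within pups, each of which gave both tissues. In wild-type pups 31 of 38 genes were higher in ventricles than in atria, with a median log2 difference of 0.49 and 0 called, as 0% of all genes were called higher. In knockout pups 29 of 38 were lower in ventricles, with a median of -0.37 and 0 called, beside 0.121% of all genes called lower. Ventricles exceeded atria for 31, 25 and 30 of the genes in wild-type pups 1 to 3 and for 7, 9 and 20 in knockout pups 1 to 3. The first 2 knockout pups thus had the opposite order from all 3 wild-type pups, and pup 3 stood between. Without wild-type pup 2, ventricles exceeded atria for 30 of 38 genes in wild-type, with a median of 0.64. In knockout pups 9 of 38 genes were higher in ventricles, and 16, 13 and 4 were without knockout pup 1, 2 and 3, with medians of -0.19, -0.26 and -0.60. Birc5 had the smallest unadjusted p in wild-type pups, with 1.56 (SE 0.32, limma adjusted p = 0.164). Incenp had the smallest in knockout pups, with -1.61 (SE 0.52, limma adjusted p = 0.379).

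Taken with its sign, the knockout minus wild-type difference was lower in ventricles than in atria for 35 of 38 genes. The median ventricular minus atrial effect was -0.90, beside -0.02 for all genes tested. A lower value is not always a weaker one. Plk1 had -2.17 in ventricles and 1.68 in atria, and Cdca3 -0.80 and 0.67, so their ventricular differences were opposite in sign and larger in size. No member was called by limma, and 0% of all genes were called lower. At an unadjusted p under 0.05 there were 7 members, Racgap1, Birc5, Ube2c, Cdca3, Plk1, Cenpa and Ect2, beside 1.10% of all genes on the lower side. Racgap1 had -1.66 (SE 0.45), Birc5 -1.58 (SE 0.46) and Ube2c -1.38 (SE 0.50), each with a limma adjusted p of 1. The median was -1.01 without wild-type pup 2, with 3 of 38 genes positive, and -0.82 without knockout pup 2, with 6 positive. This test has 4 residual degrees of freedom. The knockout effect in atria exceeded that at E13.5 for 33 of 38 genes, with a median of 0.78, and 0 were called, as 0.00552% of all genes were called higher. There 7 members had an unadjusted p under 0.05 on the higher side, beside 2.49% of all genes, led by Birc5 with 1.72 (SE 0.34, limma adjusted p = 0.287) and Racgap1 with 1.73 (SE 0.50). Kif11 differed the other way, with -1.42 (SE 0.64). Between ventricles and E13.5 the effects differed by a median of -0.03 with 0 members called, as 0% of all genes were called lower. Stage and dissection cannot be told apart in the last 2 contrasts, and the comparisons share their atrial, ventricular or E13.5 libraries.

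From the embryonic heart to P3 most of the 38 genes had lower values, and the drop was wider in wild-type atria than in the other groups as listed. These comparisons set whole hearts against dissected chambers, and 6 of the 8 E13.5 libraries were prepared in 2016 and all others in 2018. In wild-type ventricles against wild-type E13.5 hearts 37 of 38 differences were negative with a median of -0.72, and limma called 2 members lower, beside 1.74% of all genes. In wild-type atria 37 were negative with a median of -1.25 and 16 were called lower, beside 2.39% of all genes. In knockout ventricles against knockout E13.5 hearts all 38 were negative with a median of -0.76 and 3 were called lower, beside 0.954% of all genes. In knockout atria 31 were negative with a median of -0.49 and 0 were called, beside 0.855% of all genes called lower. The 2 members called lower in wild-type ventricles were Ube2c, with -1.32 on the log2 scale (SE 0.35, limma adjusted p = 0.0303), and Birc5, with -0.86 (SE 0.24, limma adjusted p = 0.0420). Those called lower in knockout ventricles were Ect2, Kif11 and Anln, with -1.53, -1.77 and -1.15 (limma adjusted p of 0.0183 to 0.0365). Both ventricular counts changed when single libraries were left out. Atrial libraries do not enter these differences. They act on the counts only through the spread shared by the 6 groups and the set of genes tested. The wild-type count was 0 without wild-type E13.5 replicate 1 or 3 or any 1 of the 3 wild-type ventricles, 4 without wild-type atrial replicate 3 and 6 without the third atrial pair. The knockout count was 0 without knockout E13.5 replicate 1, 1 without knockout E13.5 replicate 3 or knockout ventricular replicate 1 or 3, 6 without wild-type atrial replicate 3 and 13 without the third atrial pair. The shares of all genes called in these settings are not given here, so these changes cannot be read as particular to the members.

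Markers of other cell types moved over the same comparisons. Fibroblast markers summed to 22818 to 28044 in wild-type E13.5 hearts, 85471 to 90410 in atria and 52775 to 57148 in ventricles. In wild-type atria 12 of 12 were positive with a median of 1.71 and 9 were called higher by limma, and in ventricles 11 of 12 with a median of 0.96 and 6 called higher. Of all 18125 genes limma called 563 higher in wild-type atria and 607 in wild-type ventricles. The counts for knockout tissues were 353 in atria and 324 in ventricles. Globins summed to 60658 to 234491 in wild-type E13.5 hearts, 15575 to 18692 in atria and 10300.2 to 25283 in ventricles, with 7 of 7 negative and 6 called lower in both tissues. Fibroblast markers were thus higher and globins lower in every wild-type P3 library than in any wild-type E13.5 library. Epicardial markers were positive in 8 of 10 in atria with 1 called higher (Msln), and negative in 8 of 10 in ventricles with 3 called lower (Krt19, Tbx18 and Upk3b). Cardiomyocyte markers had 4 called higher (Myh6, Nppa, Ryr2 and Tnni3) and 1 lower (Myh7) in atria, and 6 higher and 1 lower (Nppa) in ventricles. In knockout libraries 4 fibroblast markers were called higher (Col1a2, Col3a1, Dpt and Tcf21) and 1 lower (Lum) in atria, and 3 higher (Dcn, Dpt and Postn) in ventricles. The 3 embryonic globins Hba-x, Hbb-bh1 and Hbb-y were called lower in both knockout tissues. The named markers were called, but others were too. Limma also called 3 endothelial markers higher and 1 lower, and 2 smooth muscle markers higher and 1 lower, in wild-type ventricles. In wild-type atria 1 smooth muscle and 1 glial marker were called higher. In knockout atria 4 cardiomyocyte markers were called higher and 2 lower. There 2 endothelial, 2 smooth muscle, 1 macrophage and 1 epicardial marker were higher. In knockout ventricles 5 cardiomyocyte and 2 smooth muscle markers were called higher and 1 endothelial lower. The part of these cell types in the stage differences of the 38 genes was not tested.

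The 16 genes called lower in wild-type atria came from all role groups. Birc5 had the largest drop, from 1359, 1098, 1367 and 1448 in E13.5 hearts to 220.2, 252 and 262 in atria, a log2 difference of -2.42 (SE 0.24, limma adjusted p = 3.97e-06). Ube2c fell by 1.98, Cks2 by 1.84, Cenpf by 1.81 and Top2a by 1.78 (limma adjusted p of 0.00184, 0.00353, 0.0113 and 0.0120). Mki67 fell by 1.38 (limma adjusted p = 0.0209). The group also held Cenpe, Nusap1, Tpx2, Spc25, Cdca8, Bub1b, Ect2, Bub1, Prc1 and Cenpa, which work at the kinetochore, on the spindle, in the passenger complex, in the checkpoint and in cytokinesis. The count was 9 without wild-type atrial replicate 1, and 9 without the E13.5 libraries prepared in 2018, with the shares of all genes in these settings not given here. In knockout atria the same comparison gave -0.70 for Birc5, -0.55 for Ube2c and -1.14 for Top2a, and none of these was called.

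In wild-type ventricles the 3 largest drops by size were those of Kif2c, Ube2c and Kif20a. Kif2c, a microtubule-depolymerizing kinesin, went from 71.8, 86.4, 100.18 and 165 at E13.5 to 6.65, 85.2 and 34.9, a log2 difference of -1.82 (SE 0.72, limma adjusted p = 0.168). Its first ventricular value rests on about 7 reads, and without that library the difference was -0.87. Ube2c went from 806, 928, 933 and 556 at E13.5 to 242, 334 and 392, with no overlap. Kif20a went from 329, 313, 375 and 479 at E13.5 to 214, 116 and 146, also with no overlap. Its log2 difference was -1.26 (SE 0.41, limma adjusted p = 0.0816). The share of all genes without overlap in this comparison is not given here, so neither separation can be read as particular to these genes. At the other end stood Spc25, Melk and Kif11. Spc25, a subunit of the Ndc80 kinetochore complex, went from 493, 1169, 1195 and 1063 at E13.5 to 628, 717 and 1105, a log2 difference of -0.22 (SE 0.34). Melk, a kinase of proliferating cells, went from 178, 166, 249 and 253 at E13.5 to 93.1, 238 and 322, a log2 difference of -0.11 (SE 0.45) that was 0.41 without wild-type ventricular replicate 1. Kif11 was the single member with a positive difference, 0.66 (SE 0.45), against the 2 low wild-type embryos of 1 litter. Mki67 had -0.63 (SE 0.34) and Top2a -0.77 (SE 0.41), with limma adjusted p of 0.371 and 0.353. Of the further mitotic genes 62 of 75 had negative differences in wild-type ventricles, and limma called 2 of them lower, Cks1b and Cenpw. In wild-type atria 69 of 75 were negative and 11 were called lower. Of the replication genes 37 of 40 were negative in wild-type ventricles, with Pola2, Dnmt1, Lig1 and Tyms called lower, and 36 of 40 in wild-type atria, with 6 called lower.

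The members differed in how closely they followed one another. Across the 20 libraries the correlation of each gene with the mean of the other 37 ran from 0.19 for Kif11 to 0.93, with a median of 0.71; the libraries share stage, pup and depth, so this is a description. Nuf2 (0.27) and Incenp (0.33) followed the others least after Kif11. The median SD over the 38 genes on the log2 scale was 0.38 and 0.37 in the E13.5 groups, 0.63 and 0.54 in wild-type and knockout atria, and 0.45 and 0.53 in wild-type and knockout ventricles. Plk1 had the widest spread in wild-type atria (SD 2.77), and its values rest on few reads in several libraries.

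The third atrial pair split the members in 2 directions. Against the other 2 pairs, its 2 libraries were lower for 21 and higher for 17 of the 38 genes, with a median of -0.25, beside 0.26 over all genes. Top2a, Cenpf and Ndc80 were lowest there relative to the other pairs, by log2 differences of -1.78, -1.46 and -1.32. Plk1, Kif2c and Cdc20 were highest, by 3.15, 1.61 and 1.57. Across the 38 genes this difference had a Spearman correlation of -0.55 with the annotated exonic length, and the atrial knockout difference one of -0.24; genes are not independent replicates, and the part of length in either was not tested.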

How the data were processed

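RNA of E13.5 hearts and P3 atria and ventricles was made into libraries by SMART-Seq2, per the labels' protocols. Tools listed, per the submitters' processing notes, are STAR 2.5.1, bcl2fastq 2.2 and DESeq2, with build mm10; counter and annotation are not stated. The authors deposited a normalized signal on a linear scale; its low values step like counts divided by a factor per library, which gave the estimated totals. Among 4 gene types at least 99.7% of values up to 100 reads were whole within 0.01 reads, and over all genes 47.0 to 65.8%, so no count test was run. Values were tested as log2(signal + 1) with limma 3.58.1 in R 4.3.3, for genes with a signal of at least 10 in at least 3 libraries, with 1 mean for each of 6 groups (14 residual degrees of freedom), two-sided, Benjamini-Hochberg adjusted over 18125 genes. Differences on this scale understate changes of low genes. Ventricle minus atrium was tested on differences per pup. The scripts were tested on simulated data. Gene coordinates and overlaps came from GENCODE M21 (GRCm38, which is mm10), where all 38 genes matched by identifier.

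Members, lists and tests were chosen with earlier results of these data known. Values in every library are given for members called between genotypes, the 4 members of smallest unadjusted p per genotype comparison, the 3 largest and 3 smallest differences between wild-type ventricles and E13.5 hearts, and Mki67 and Top2a. Libraries of 1 number came from 1 litter prepared on 1 date, per the labels, which pairs them; their deviations from group means correlated at 0.21, 0.26 and 0.64 in atria (libraries of different litters at -0.41 to 0.23, so only pair 3 stood out), 0.02 to 0.07 in ventricles and -0.02 to 0.02 at E13.5. Alternatives were another pseudocount, no filter, 2 other scalings, the replicate block, separate fits and libraries left out; leaving out the third atrial pair or knockout pup 2 was chosen after seeing the data.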

Additional observations from a re-analysis of the deposited data

Results flagged for a closer look

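Single libraries lay far from the others of their group for 6 of the 76 combinations of a member and an E13.5 group (groups of 4 were the only ones large enough to ask this). Chance gives about 1 such case in 20 groups. The gap to the nearest library, as a share of the group's range, exceeded Dixon's 95% critical value in each case. Ccna2, cyclin A2, stood at 1052 in wild-type replicate 2, above 605 to 654 in the other wild-type hearts, and at 1038 in knockout replicate 4, above 691.5 to 726 in the other knockout hearts. Cenpa stood at 398 in wild-type replicate 1, below 665 to 708 in the others. Cenpf, a large kinetochore protein, was also lowest in that library, at 1819 beside 3128 to 3352. Hmmr, a spindle assembly gene, stood at 461 in wild-type replicate 3, below 810 to 880 in the others. Melk stood at 423 in knockout replicate 4, above 135 to 170.1 in the others. None of these genes was called at E13.5.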

How the results depend on the processing

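The atrial median of the 38 genes stayed positive in all 30 alternatives. Its count of called members, 1, became 0 with each stage and tissue fitted alone, without a filter, with upper-quartile scaling, without both libraries of knockout pup 2, without both libraries of wild-type pup 2 and without the E13.5 libraries prepared in 2018, and lay between 0 and 1 when single libraries were left out. The replicate block kept Birc5 called (limma adjusted p = 0.0178, with 1 member called) and changed no other call.

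Counts of called members depended most on the libraries in the stage comparisons. Shares of all genes called in each setting are not given here, so the counts describe stability and not a trait of the members. For wild-type ventricles against E13.5 the count of 2 became 1 without a filter, 1 without knockout pup 2, 0 without wild-type pup 2, 1 without the 2018 libraries and 6 without the third atrial pair, and 0 to 4 over single libraries left out. For wild-type atria against E13.5 the count of 16 became 9 without the 2018 libraries and 9 to 19 over single libraries. For knockout ventricles against E13.5 the count of 3 became 1 without a filter, 1 without the 2018 libraries, 13 without the third atrial pair and 0 to 6 over single libraries. For knockout atria against E13.5 the count of 0 became 1 without wild-type pup 2 and 0 to 1 over single libraries. The count of 0 became 1 for the atrial against the E13.5 knockout effect without the third atrial pair, and for wild-type ventricles against atria with a pup correlation in the fit of all libraries. In the fit of 6 groups, libraries outside a contrast leave its log2 differences unchanged. They act on its counts only through the shared spread and the set of genes tested. The cause was otherwise not tested.

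With single libraries or pups left out, the median ventricular knockout difference lay between -0.30 and 0.13, that of knockout ventricles against atria between -0.60 and -0.19, and that of the ventricular against the atrial knockout effect between -1.16 and -0.70. Some differences near 0 changed sign. For Mki67 at E13.5 the value was -0.0665 without the 2018 libraries and -0.0606 to 0.0789 over single libraries. In ventricles it was -0.10 to 0.35 for Mki67 and -0.0190 to 0.281 for Top2a, and for Melk between wild-type ventricles and E13.5 it was -0.48 to 0.41. Where an arm kept 2 libraries the spread was shared by the 6 groups. Values that rest on few reads, as for Plk1 and Kif2c in single libraries, limit the precision of those genes.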
